A study of Mus musculus with 8 samples.

Results

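The genes Grin1, Vax2, Actn3 and Tro were examined, 4 of the 54232 genes counted, across 8 RNA-seq libraries of mouse E14 embryonic stem cells. They were selected on their measured log2 change, because each was lower in the Usp7 knockdown and, for Actn3 and Tro, also lower in the Ssrp1 knockout. Their changes in those comparisons are therefore descriptions and support nothing. The questions that the choice did not use are how the genes compare with their closest relatives, their neighbours on the chromosome and the other genes of their pathways.

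The E14 cells (strain given as 12910la) were grown on gelatin in serum medium with the cytokine LIF, and each of the 4 groups had 2 libraries. One experiment compared control cells with cells of genotype Ssrp1_KO, made with Cas9 and a guide RNA against Ssrp1, a subunit of the histone chaperone FACT. How many knockout clones there were is not stated in the labels. The other compared control cells with cells of genotype Usp7_KD, transfected with 1000 ng of a pSuper puro plasmid carrying an shRNA against the deubiquitinase Usp7 and kept, from 24 h on, in 1 ug/ml puromycin for 3 days. Whether the Usp7 controls received an empty plasmid and puromycin is not stated, so effects of the shRNA and of selection cannot be told apart. Nothing says that replicates were separate cultures, so p-values measure the spread between these libraries, which may be technical.

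Totals were 15879056 to 18361130 counts per library. All 10 embryonic stem cell markers, Pou5f1 and Nanog among them, had counts in every library, and 0 passed the test by edgeR in either comparison. At an unadjusted p under 0.05 there were 0 in the Ssrp1 and 4 in the Usp7 comparison, DESeq2 called 0 and 1, and limma-voom 0 in each. Their summed level was 7393 and 6160 CPM in Usp7 controls and 5473 and 5121 CPM in the knockdown, with 9 of 10 log2 changes below 0 and a median of -0.35. For the Ssrp1 experiment it was 11585 and 8939 against 8589 and 8264 CPM, with 7 of 10 below 0 and a median of -0.23. Usp7 itself fell 3.13-fold in the knockdown, from 370 and 359 CPM (counts scaled to library size) to 111 and 122 CPM. Ssrp1 transcript stood at 462 and 479 CPM in its controls. The libraries labelled knockout had 412 and 123 CPM (adjusted p = 0.41, edgeR), so the transcript in replicate 1 was near the control level. Protein was not measured, so whether Ssrp1 protein was lost in either replicate cannot be told. This group is called the labelled knockout here. In the same libraries the mitochondrial share of counts was 7.31% and 2.81% against 0.732% and 0.776%. Summed over 15 genes, 2-cell-like markers reached 88.3 and 226 CPM in the Ssrp1 controls and 671 and 1860 CPM in the labelled knockout. In the Usp7 experiment they summed to 5.55 and 5.2 CPM in controls and 42.3 and 31.3 CPM in the knockdown. Of those tested, 12 of 14 and 9 of 10 were called higher by edgeR, against 3.39% and 2.36% of all genes tested. DESeq2 and limma-voom each called 10 and 8, and 0 log2 changes were below 0 in either comparison. The part of these markers in the results below was not tested. These are bulk samples, so fewer cells of a type and less RNA per cell cannot be told apart.

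The 4 genes are not members of one pathway. Grin1 encodes the subunit that every NMDA receptor, a glutamate-gated ion channel of neurons, needs to form. Vax2 encodes a homeodomain transcription factor of the ventral eye and forebrain. Actn3 encodes alpha-actinin-3, which crosslinks actin at the Z-disc of fast skeletal muscle fibres, and its relatives Actn1 and Actn4 serve most other cells. Tro encodes trophinin, first described in the attachment of the embryo to the uterus, and belongs to the MAGE family, many of whose proteins bind RING-type ubiquitin ligases. Their usual tissues are brain, eye, muscle and trophoblast.

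On the mm10 assembly Grin1 (ENSMUSG00000026959) lies on the minus strand of chromosome 2 from 25291181 to 25319187 and Vax2 (ENSMUSG00000034777) on the plus strand of chromosome 6 from 83711264 to 83738313. Actn3 (ENSMUSG00000006457) lies on the minus strand of chromosome 19 from 4861216 to 4877909 and Tro (ENSMUSG00000025272) on the minus strand of chromosome X from 150645304 to 150657583. All are annotated as protein-coding. The transcripts of Grin1 (59.4% G and C), Vax2 (61.7%) and Actn3 (56.9%) were GC-rich against a median of 49.9% over 16789 tested genes, while Tro, at 51.4%, was near that median. Exon length differed widely, from 1242 bases for Vax2 and 2901 for Actn3 to 7296 for Tro and 9700 for Grin1.

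Per kilobase of exon, Actn3 was the highest of the 4 in both control groups and Grin1 or Vax2 the lowest. In the Usp7 controls the levels were 35.9 ± 2.14 RPKM (CPM per kilobase) for Actn3, 14.2 ± 4.39 for Vax2, 13.9 ± 2.61 for Tro and 0.561 ± 0.199 for Grin1 (SD, n = 2), and Vax2 and Tro did not differ beyond their spread. In the Ssrp1 controls they were 23.7 ± 2.71 for Actn3, 12.3 ± 0.828 for Tro, 1.04 ± 0.163 for Grin1 and 0.599 ± 0.377 for Vax2 (SD, n = 2). Vax2 was thus the gene whose place moved. Its mean CPM was 23.7-fold higher in the Usp7 controls than in the Ssrp1 controls, and 6.82-fold higher than in the labelled Ssrp1 knockout. The same ratio of control groups was 1.52 for Actn3, 1.12 for Tro and 0.537 for Grin1. The experiments differ in more than the perturbation, so the source of the Vax2 difference cannot be told apart.

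**Figure D1:**
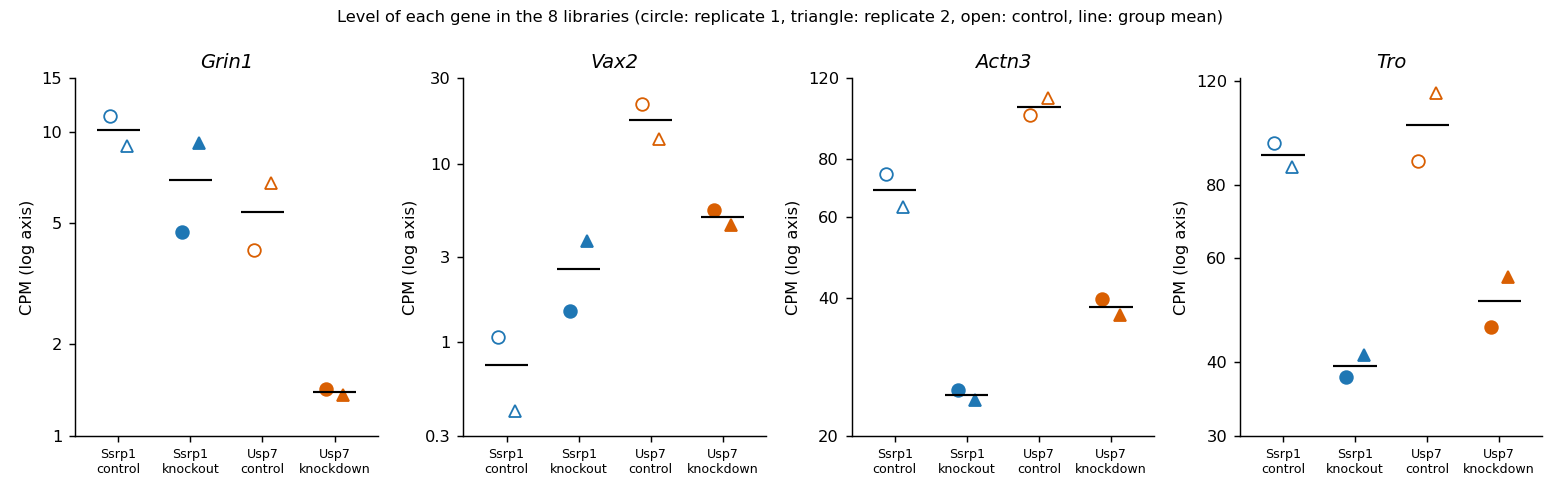
Level of Grin1, Vax2, Actn3 and Tro in each library, in CPM on log axes with a scale of their own, by group, with lines at group means. Actn3 and Tro are lower in the treated libraries of both experiments, Grin1 overlaps between the Ssrp1 groups, and Vax2 lies at 0.412 and 1.07 CPM in the Ssrp1 controls against 13.7 to 21.4 CPM in the Usp7 controls.

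Grin1 is the gene whose upstream sequence is shown, because none was matched for Vax2, Actn3 or Tro. It was the member that matched the RefSeq promoter table (GRCm38.p6), and the 250 bases before its annotated start, at chr2:25319188-25319437 on the minus strand, read as follows, with the E-box motif CACGTG in capitals.
Grin1: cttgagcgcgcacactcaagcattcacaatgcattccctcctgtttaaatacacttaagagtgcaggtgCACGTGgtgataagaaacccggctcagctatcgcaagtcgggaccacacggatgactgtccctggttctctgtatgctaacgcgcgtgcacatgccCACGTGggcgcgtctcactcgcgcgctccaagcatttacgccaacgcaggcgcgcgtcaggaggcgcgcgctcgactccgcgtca
The motif, which reads the same on both strands, began 181 and 85 bases before the start. It was found in 6.02% of the 32851 windows of this length. The window held 27 CG dinucleotides against a median of 6, more than 91.4% of all windows. The half-site letters of the neuronal repressor REST, TTCAGCACC and GGACAGC (searched on both strands), were not in this window. They were found in 0.301% and 5.28% of all windows. The search took only exact letters in the 250 bases before the start, so REST sites elsewhere at the gene were not looked for.

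Grin1 was a low-count gene in every library. In the Usp7 experiment it had 72 and 123 counts in controls and 27 and 26 in the knockdown, or 4.07 and 6.81 against 1.42 and 1.36 CPM. Both knockdown libraries lay below both controls, as they did for 22.9% of all genes tested, and the knockdown values were close to each other. The fitted log2 change was -1.97 (SE 0.40), 3.91-fold lower (adjusted p = 0.026, edgeR's quasi-likelihood test). Ssrp1 controls had 11.2 and 9.01 CPM of Grin1, and the labelled knockout 4.68 and 9.20 CPM. Replicate 1 was low and replicate 2 lay within the controls, so the groups overlapped. The log2 change of -0.49 (SE 0.49) did not pass the test (adjusted p = 0.66, edgeR).

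Vax2 went in opposite directions. In the Usp7 experiment it had 379 and 248 counts in controls and 105 and 87 in the knockdown, or 21.4 and 13.7 against 5.54 and 4.55 CPM. Both knockdown libraries were below both controls, as for 22.9% of all genes tested. The log2 change was -1.80 (SE 0.29), 3.48-fold lower (adjusted p = 0.0086, edgeR). In the Ssrp1 experiment it had 15 and 7 counts in controls and 22 and 65 in the labelled knockout, or 1.07 and 0.412 against 1.49 and 3.67 CPM. Both labelled knockout libraries were above both controls, as for 25.6% of all genes tested, with most of the difference in replicate 2. The log2 change of 1.87 (SE 0.75) did not pass the test (adjusted p = 0.22, edgeR). It was 2.31 without knockout replicate 1 and 1.07 without knockout replicate 2, each with 1 labelled knockout library left. Over the 11 alternatives it lay between 1.07 and 2.62. With every library kept, it did not pass under any alternative.

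Actn3 had closely matched replicates in both experiments. In the Usp7 experiment it had 99.8 and 109 CPM in controls and 39.7 and 36.7 CPM in the knockdown. The log2 change was -1.45 (SE 0.19), 2.73-fold lower (adjusted p = 0.0022, edgeR). Actn3 in the Ssrp1 experiment was at 74.2 and 63.1 CPM in controls and at 25.2 and 23.9 CPM in the labelled knockout, on 1036 and 1071 against 372 and 423 counts. The log2 change was -1.43 (SE 0.29), 2.70-fold lower (adjusted p = 0.025, edgeR). Groups did not overlap in either experiment. Of all genes tested, 25.3% were likewise lower in both labelled knockout libraries and 22.9% in both knockdown libraries. The labelled knockout replicate 1, in which the Ssrp1 transcript was near control, was as low in Actn3 as replicate 2. The Ssrp1 call ended without control replicate 1 (adjusted p = 0.25) or control replicate 2 (0.054), at log2 changes of -1.37 and -1.53.

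Tro had the smallest change of the 4 in the knockdown. In the Usp7 experiment it had 87.6 and 115 CPM in controls and 45.8 and 55.7 CPM in the knockdown. The log2 change was -0.99 (SE 0.21), 1.99-fold lower (adjusted p = 0.03, edgeR). Tro in the Ssrp1 experiment was at 94.2 and 85.7 CPM in controls and at 37.7 and 41.1 CPM in the labelled knockout. The log2 change was -1.14 (SE 0.27), 2.20-fold lower (adjusted p = 0.045, edgeR). Groups did not overlap in either experiment. Of all genes tested, 22.9% were likewise lower in both knockdown libraries and 25.3% in both labelled knockout libraries. The Ssrp1 call of Tro lay just inside the threshold of 0.05. It ended with limma-voom (adjusted p = 0.055), with the GC and length correction (0.092), without knockout replicate 1 (0.061), and without control replicate 1 (0.34) or 2 (0.10).

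All 4 genes were therefore called lower in the knockdown, against 0.628% of the 15915 genes tested (2.99% were called in either direction), and 2 of 4 in the labelled Ssrp1 knockout, against 0.324% of 15757 (3.71% in either direction). Since the genes were picked for this, nothing is read from these counts. By size of fall among the 100 genes called lower in the knockdown, Grin1 ranked 12, Vax2 16, Actn3 34 and Tro 79. Among the 51 genes called lower in the labelled knockout, Actn3 ranked 41 and Tro 51. Among 14854 genes tested in both experiments, Actn3 and Tro were the 2 called lower in both by edgeR, which is 3.92% of the Ssrp1 list and 2% of the Usp7 list. Being lower in both was also how these genes were chosen. Among the same 14854 genes, 5 were called in opposite directions. The Usp7 calls of all 4 ended without knockdown replicate 2, when adjusted p-values were 0.23 to 0.43, with log2 changes of -1.93 for Grin1, -1.66 for Vax2, -1.39 for Actn3 and -1.14 for Tro. The calls of Grin1, Vax2 and Tro also ended without the filter on low counts and in a joint fit of the 8 libraries (adjusted p of 0.072 to 0.19). That of Tro also ended without knockdown replicate 1 (log2 change -0.86, adjusted p = 0.34).

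**Figure D2:**
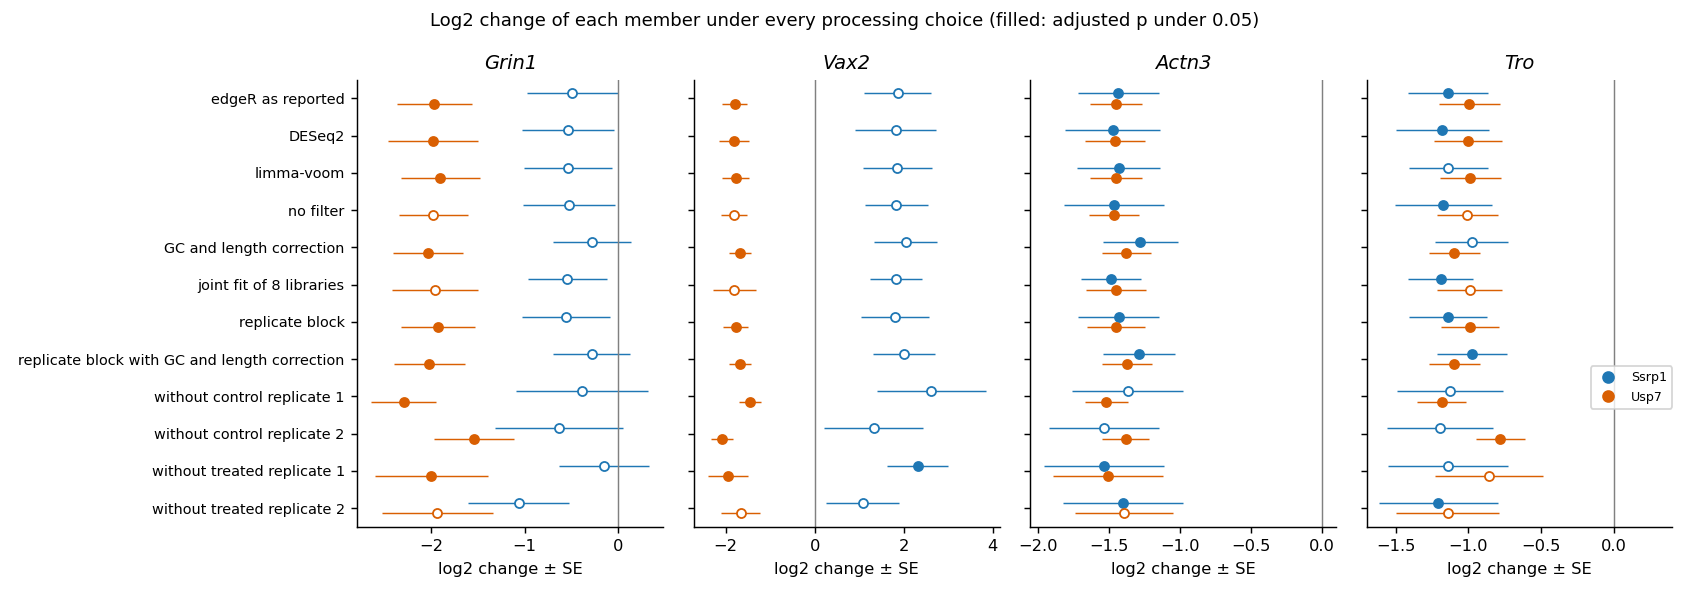
Log2 change (treated minus control, with SE) of each gene under each processing choice, for the Ssrp1 (blue) and Usp7 (orange) comparisons, where treated means knockout or knockdown, and filled points have an adjusted p under 0.05. The scales differ between panels; no point crosses 0, with Grin1 between -1.07 and -0.15 and Vax2 between 1.07 and 2.62 in the Ssrp1 comparison.

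The relatives and pathway genes of the 4, from 10 lists, gave 126 genes tested in the Usp7 comparison, with the 4 themselves left out. Of these, 8 were higher and 1 lower by edgeR, against 2.36% of all genes tested called higher and 0.628% called lower. The 1 lower gene was Usp7 itself, which is listed as a partner of MAGE proteins. This balance depended on the setting. With the GC and length correction 8 were higher and 5 lower, with the replicate block 12 and 8, with both 13 and 11, and without control replicate 2 there were 21 and 17. In the Ssrp1 comparison 122 were tested, with 0 higher and 1 lower, against 3.39% and 0.324% of all genes. All relatives named below as rising in the knockdown lost their call without knockdown replicate 2 (adjusted p of 0.12 to 0.43). All of them except Mageb4 also lost it without the filter on low counts and in the joint fit (adjusted p of 0.055 to 0.43). Over all genes the median log2 change was -0.02 in the Usp7 and 0.03 in the Ssrp1 comparison.

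Among the alpha-actinins, Actn2 rose in the knockdown in which Actn3 was low. Actn2, the Z-disc form of heart and all skeletal muscle fibres, had 70 and 113 counts without and 300 and 474 with the knockdown. It rose 3.96-fold (log2 change 1.99, SE 0.31, adjusted p = 0.0085, edgeR). Both knockdown libraries were above both controls, as for 24.7% of all genes tested. Actn1 and Actn4, the forms of nonmuscle cells, stood at log2 changes of -0.29 (SE 0.18) and -0.06 (SE 0.21), which missed the threshold (adjusted p = 0.47 and 0.91, edgeR). In RPKM, Actn4 was the highest in the Usp7 controls (119 ± 15.3), followed by Actn1 (39.4 ± 0.648), Actn3 (35.9 ± 2.14) and Actn2 (1.35 ± 0.428; SD, n = 2 for each). In the knockdown Actn3 was at 13.2 ± 0.718 and Actn2 at 5.35 ± 1.67 RPKM (SD, n = 2). The level of Actn3 over that of Actn2 per kilobase came to 33.0 and 22.7 for Usp7 controls and to 3.28 and 1.94 for the knockdown. Because Actn3 was chosen for falling in both experiments, its fall alone lowers this ratio, so nothing is read from the drop. For the Ssrp1 experiment that ratio was 13.3 and 14.6 in controls and 8.25 and 3.71 in the labelled knockout. There Actn2 had a log2 change of -0.01 (SE 0.53, adjusted p = 1.00, edgeR) and counts of 102 and 96 against 59 and 149, so the groups overlapped.

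Of 18 Z-disc and sarcomere genes tested in the Usp7 comparison, 2 rose and 0 fell, with a median log2 change of 0.06. These were Actn2 and Ttn, the gene of the giant sarcomere protein titin, which had 823 and 1013 counts in controls and 1989 and 2429 in the knockdown (2.26-fold, adjusted p = 0.012, edgeR). The Ttn log2 change of 1.17 was 0.63 (adjusted p = 0.11) with the GC and length correction. None of 19 passed in the Ssrp1 comparison by edgeR: 0 had an unadjusted p under 0.05, and limma-voom and DESeq2 called 0. Of 19 actin crosslinkers and focal adhesion genes, 0 passed in the Usp7 comparison by edgeR, where 0 had an unadjusted p under 0.05 and limma-voom and DESeq2 called 0. For the Ssrp1 comparison 0 passed, while 2 had an unadjusted p under 0.05 and the other tools called 0. Of the skeletal muscle markers, Myf5, Myf6 and Tnnc2 were at 0 in all 4 Usp7 libraries, and Myod1 had 1 to 4 counts. The 12 markers summed to 161 and 98.0 CPM in the Usp7 controls and 94.1 and 96.9 CPM in the knockdown, and to 127 to 235 CPM in the Ssrp1 controls and 183 to 342 CPM in the labelled knockout. Most of that sum was Mylpf, a myosin light chain gene.

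The MAGE family had 2 members that rose in the knockdown in which Tro was low. Of 10 tested besides Tro, 2 rose and 0 fell by edgeR. Mageb4, a germ cell member, had 12 and 10 counts in controls and 83 and 110 in the knockdown (8.15-fold, log2 change 3.03, SE 0.43, adjusted p = 0.0041, edgeR). Ndn, which encodes necdin and is imprinted, had 165 and 157 counts in controls and 400 and 482 in the knockdown (2.57-fold, log2 change 1.36, SE 0.23, adjusted p = 0.011, edgeR). The nearest relatives Maged1 and Maged2 measured 0.03 (SE 0.18) and -0.21 (SE 0.21) on the log2 scale, with overlapping groups (adjusted p = 0.96 and 0.68, edgeR). Of the 10 tested in the Ssrp1 comparison 0 passed by edgeR, 3 had an unadjusted p under 0.05, limma-voom called 0 and DESeq2 called 1. Mageb4 had 9 and 9 counts in controls and 41 and 54 in the labelled knockout. Both of these libraries were above both controls, as for 25.6% of all genes tested (log2 change 2.35, SE 0.66, adjusted p = 0.078, edgeR). Mageh1 had log2 changes of -0.66 (SE 0.25) in the Usp7 and -1.01 (SE 0.40) in the Ssrp1 comparison, but missed the threshold (adjusted p = 0.21 and 0.20, edgeR). Its groups did not overlap in either. Of all genes tested, 22.9% and 25.3% were likewise lower in both treated libraries. Of 12 partners of trophinin and MAGE proteins, Usp7 was the 1 that passed in the Usp7 comparison. By edgeR 0 passed in the Ssrp1 comparison, where 2 had an unadjusted p under 0.05, limma-voom called 0 and DESeq2 called 1. The 9 trophoblast markers summed to 41.8 and 52.5 CPM in the Usp7 controls and 75.2 and 71.0 CPM in the knockdown, with Tpbpa at 0. Most of that sum was Tfap2c, at 26.5 and 33.5 CPM in controls and 53.7 and 46.2 CPM in the knockdown (adjusted p = 0.094, edgeR), while Ascl2 was at 4.98 and 6.59 against 3.16 and 3.09 CPM. Of 7 tested, 1 was higher by edgeR, Krt7, 6 had an unadjusted p under 0.05, and limma-voom and DESeq2 called 0. In the Ssrp1 experiment they summed to 53.8 and 62.8 against 72.3 and 83.7 CPM, with 1 of 6 tested higher, Gata3, by edgeR, and 1 called by each of the other tools. Over all genes 2.36% were called higher in the Usp7 and 3.39% in the Ssrp1 comparison.

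**Figure D3:**
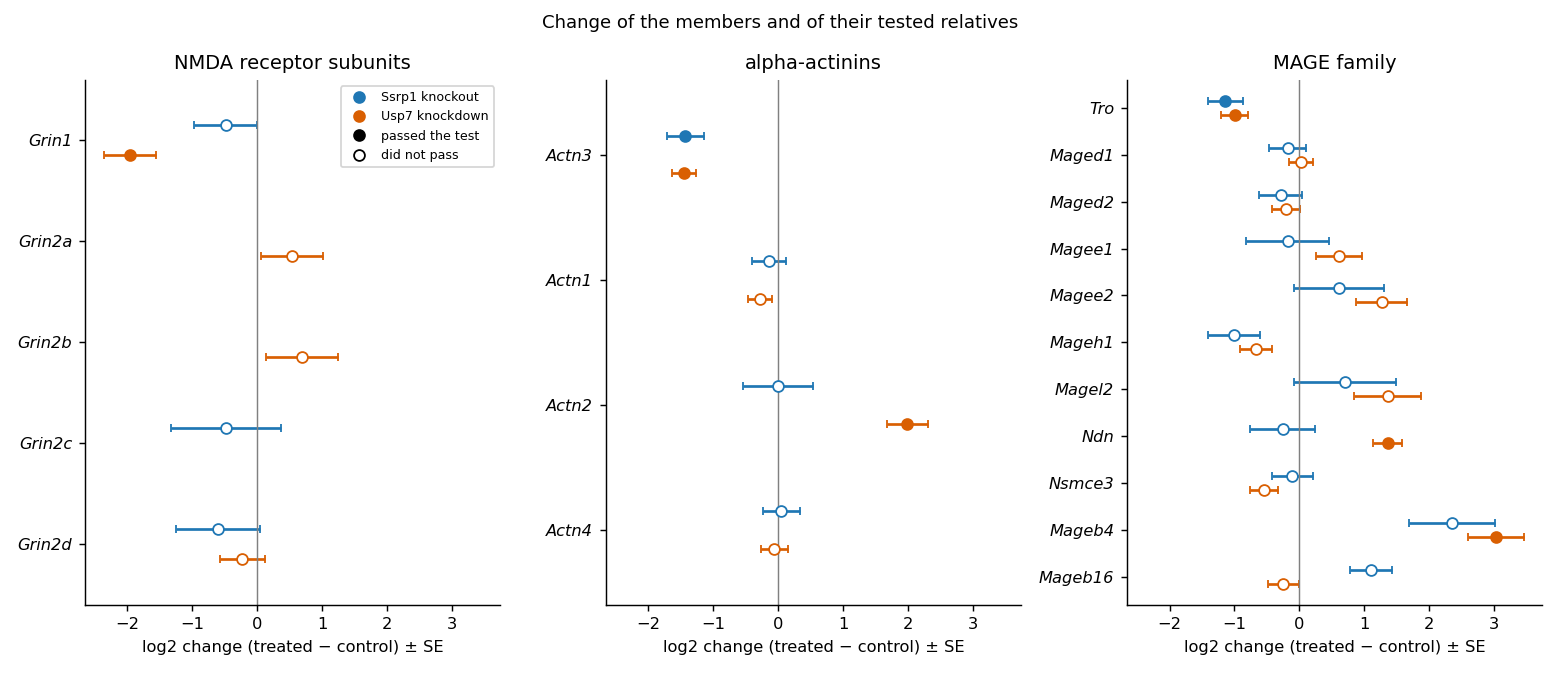
Log2 change (treated minus control, with SE) of Grin1, Actn3 and Tro and of their tested relatives in the Ssrp1 (blue) and Usp7 (orange) comparisons; filled points passed the edgeR test. Actn2 (1.99), Ndn (1.36) and Mageb4 (3.03) are the filled points above 0, all in the Usp7 comparison, and Actn1, Actn4, Maged1 and Maged2 lie near 0.

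The partners of Grin1 in the NMDA receptor were too low to follow closely. Grin2d, the highest of them per kilobase, had 60 and 62 counts in controls and 53 and 58 in the Usp7 knockdown (log2 change -0.23, SE 0.35, adjusted p = 0.79, edgeR). Grin2a had 21 and 16 counts against 32 and 25, and Grin2b 8 and 14 against 17 and 21. Knockdown values of both genes were above controls, as for 24.7% of all genes tested. Their log2 changes of 0.53 (SE 0.48) and 0.69 (SE 0.56) missed the threshold (adjusted p = 0.63 and 0.58, edgeR). Grin2c, Grin3a and Grin3b did not pass the filter on low counts there. Over all ionotropic glutamate receptor subunits besides Grin1, 10 were tested and 0 passed in the Usp7 comparison by edgeR, where 1 had an unadjusted p under 0.05 and limma-voom and DESeq2 called 0. Of 6 tested in the Ssrp1 comparison 0 passed, 1 had an unadjusted p under 0.05 and the other tools called 0. There Grin2c and Grin2d had log2 changes of -0.48 (SE 0.85) and -0.60 (SE 0.65). The median log2 change of the list was 0.38 in the Usp7 and -0.36 in the Ssrp1 comparison.

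Of 19 tested genes of receptor partners and the postsynaptic density, 1 rose in the knockdown. It was Grip1, a scaffold for AMPA receptors, with 24 and 40 counts in controls and 112 and 108 in the knockdown (3.22-fold, adjusted p = 0.037, edgeR). Its call also ended without control replicate 1 (adjusted p = 0.06) and without knockdown replicate 1 (0.11). Of 18 in the Ssrp1 comparison 0 passed, 2 had an unadjusted p under 0.05, and limma-voom and DESeq2 called 0. Grin1 is among the neuronal genes with RE1 elements, the sites bound by REST. Of 15 others tested in the Usp7 comparison, 2 rose and 0 fell, with a median log2 change of -0.31. These were the sodium channel subunit gene Scn3b (3.56-fold, adjusted p = 0.016, edgeR) and Vgf, the gene of a secreted neuropeptide precursor (3.27-fold, adjusted p = 0.01, edgeR). Of 14 in the Ssrp1 comparison 1 fell, Stmn3, the gene of a microtubule regulator, from 372 and 378 counts to 67 and 143 (3.73-fold, adjusted p = 0.035, edgeR). The call ended without control replicate 1 (adjusted p = 0.36) or 2 (0.084). Rest itself had a log2 change of 0.00 (SE 0.20) in the Usp7 and 0.35 (SE 0.36) in the Ssrp1 comparison. Of 10 genes of REST and its corepressors 0 passed in either comparison by edgeR, 1 had an unadjusted p under 0.05 in each, and limma-voom and DESeq2 called 0. The 11 neuron markers summed to 290 to 329 CPM in the Usp7 controls and 284 to 297 CPM in the knockdown. In the Ssrp1 experiment they summed to 585 to 895 CPM in controls and 386 to 421 CPM in the labelled knockout. Most of that sum was Stmn2, at 711 and 446 against 301 and 262 CPM. The marker Dcx was at 0 in all 4 of these libraries. Of 9 tested there 0 passed by edgeR, 2 had an unadjusted p under 0.05, limma-voom called 0 and DESeq2 called 1. Log2 changes were below 0 for 5 of the 9, while Nefm went from 14 and 12 counts to 86 and 34. In the Usp7 comparison 0 of 9 passed by edgeR.

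Vax1, the closest relative of Vax2, had 0 counts in 7 of the 8 libraries and 1 count in the labelled Ssrp1 knockout replicate 2. Of 13 eye and ventral forebrain regulators tested in the Usp7 comparison, 1 rose and 0 fell, with a median log2 change of -0.07. The 1 was Pax6, a regulator of eye development, with 162 and 125 counts in controls and 380 and 356 in the knockdown (2.40-fold, adjusted p = 0.02, edgeR). Its call also ended without knockdown replicate 1 (adjusted p = 0.092). Ssrp1 controls had 181 and 230 counts of Pax6 and the labelled knockout 59 and 67, lower without overlap, as for 25.3% of all genes tested. The log2 change of -1.72 (SE 0.45) missed the threshold in the Ssrp1 comparison (adjusted p = 0.065, edgeR). There 0 of 14 genes of the list passed by edgeR, 3 had an unadjusted p under 0.05, limma-voom called 0 and DESeq2 called 1. The 10 neural progenitor markers, Pax6 among them, summed to 34.9 and 34.8 CPM in Usp7 controls and 55.3 and 60.1 CPM in the knockdown, most of it Pax6 and Nes. Of 5 tested, 1 was higher (Pax6), 3 had an unadjusted p under 0.05 and the median log2 change was 0.72. For the Ssrp1 experiment they summed to 24.8 and 32.6 against 27.7 and 23.6 CPM, and 0 of 3 passed by edgeR, where 1 had an unadjusted p under 0.05, limma-voom called 0 and DESeq2 called 1. Their part in the values of Vax2 and Grin1 was not tested. Vax2 and Pax6 had values of opposite sign in each comparison, with 2 of these 4 changes past the test, both in the Usp7 comparison. Vax2 was chosen for its fall there and Pax6 is named for its call, so nothing is read from the opposite signs.

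**Figure D4:**
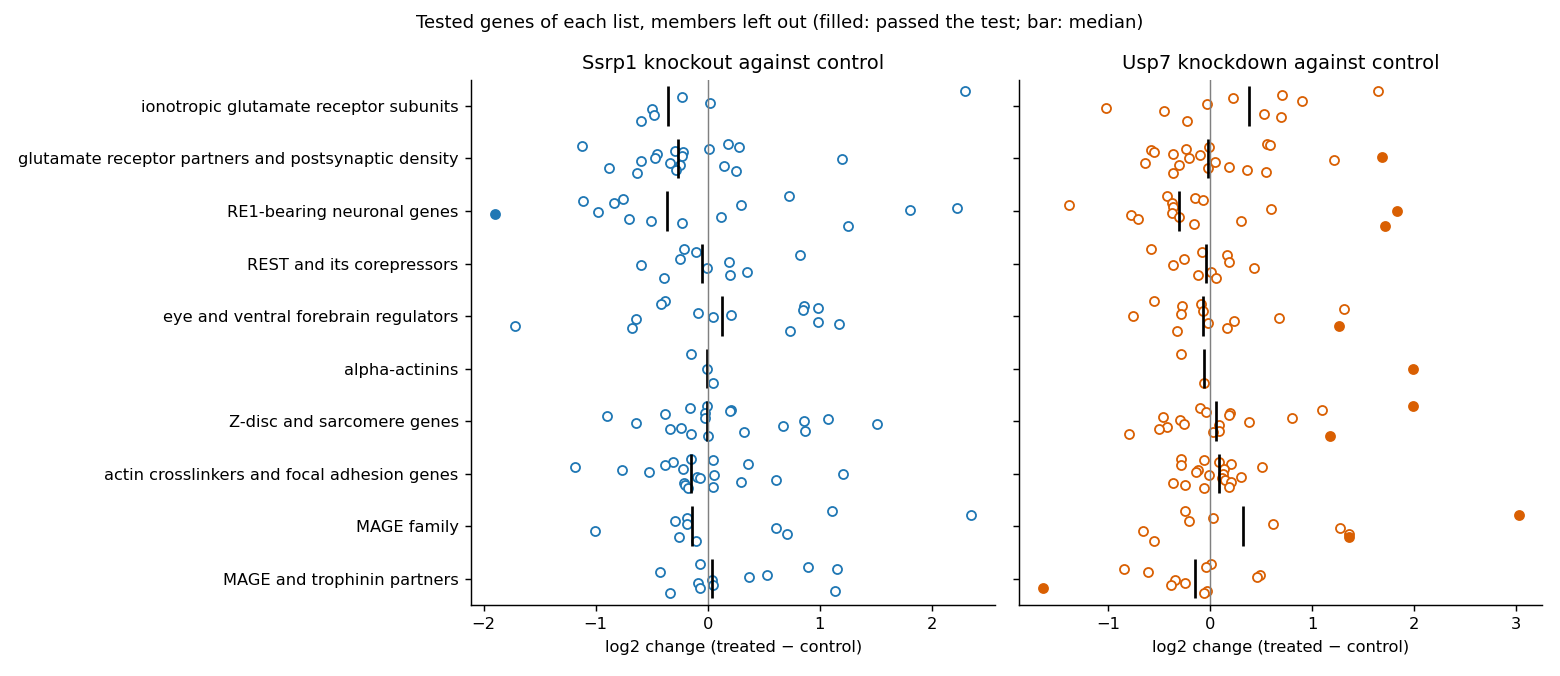
Log2 change (treated minus control) of each tested gene in 10 lists of relatives and pathway genes, without the 4 genes themselves, in the Ssrp1 and Usp7 comparisons; filled points passed the edgeR test and bars mark list medians. The medians lie between -0.37 and 0.38, and a few single genes stand apart, among them Mageb4 and Actn2 in the knockdown.

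Of 64 annotated genes within 100 kb, 37 were tested in the Usp7 comparison and 0 passed by edgeR, while 6 had an unadjusted p under 0.05 and limma-voom and DESeq2 called 0. Their median log2 change was -0.07. In the Ssrp1 comparison 38 were tested, with 1 higher and 0 lower. Next to Actn3, Ctsf ends 298 bases away and Zdhhc24 begins 759 bases away. These had log2 changes of -0.16 (SE 0.21) and 0.04 (SE 0.26) in the Usp7 comparison and of -0.56 (SE 0.34) and 0.51 (SE 0.45) in the Ssrp1 comparison, none past the test. Next to Tro, Pfkfb1, 1426 bases away, had -0.50 (SE 0.24) in the Usp7 and -0.01 (SE 0.36) in the Ssrp1 comparison. Next to Grin1, Anapc2 had -0.17 (SE 0.18) and Man1b1 -0.06 (SE 0.18) in the Usp7 comparison. In the Ssrp1 comparison Anapc2 had -0.38 (SE 0.27) and Man1b1 -0.21 (SE 0.26). The nearest gene beside Vax2 tested in both comparisons, Ankrd53 at 24331 bases, had few counts, with 0.39 (SE 0.62) in the Usp7 and -0.07 (SE 0.99) in the Ssrp1 comparison.

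The antisense gene Vax2os, which overlaps the start of Vax2, had log2 changes of the same sign as Vax2 in both comparisons with all libraries. Its counts were 349 and 272 for Usp7 controls and 189 and 174 for the knockdown. Both knockdown libraries were below both controls, as for 22.9% of all genes tested. The log2 change of -0.87 (SE 0.24) did not pass the test (adjusted p = 0.092, edgeR). It passed with the GC and length correction (-0.93, adjusted p = 0.032), with the replicate block (-0.86, adjusted p = 0.014), with both (-0.92, adjusted p = 0.0021) and without control replicate 2 (-1.05, adjusted p = 0.00087). Ssrp1 controls had 129 and 114 counts and the labelled knockout 107 and 230, with overlap (log2 change 0.40, SE 0.47, adjusted p = 0.72, edgeR). Without knockout replicate 2 its sign turned (-0.087). Since the strand mode of the counting is not given, reads from the overlap of Vax2 and Vax2os cannot be told apart. The same holds for Grin1 and Grin1os, with 5 and 14 counts for Usp7 controls and 1 and 0 for the knockdown, which did not pass the filter there. The 1 neighbour that passed was Paip2b, the gene of an inhibitor of poly(A)-binding protein, 67088 bases from Vax2. It had 1147 and 1463 counts in the Ssrp1 controls and 2472 and 3669 in the labelled knockout (2.30-fold higher, log2 change 1.2, adjusted p = 0.036, edgeR). The call ended with the GC and length correction (0.99, adjusted p = 0.087) and without control replicate 1 (0.34) or 2 (0.086).

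**Figure D5:**
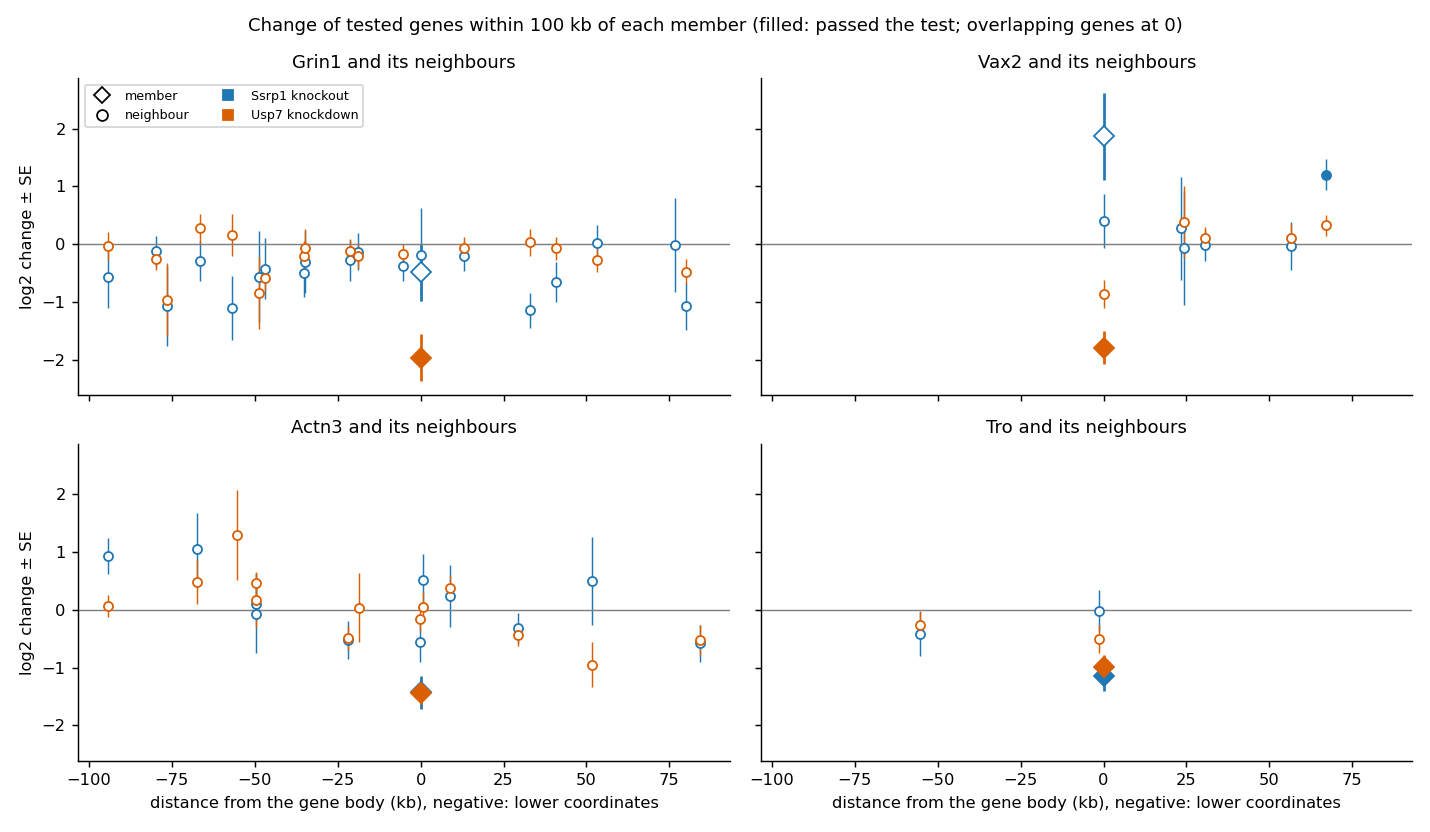
Log2 change (treated minus control, with SE) of the 4 genes (diamonds) and of the tested genes within 100 kb (circles) by distance from the gene body in kb, for the Ssrp1 (blue) and Usp7 (orange) comparisons, with filled symbols past the edgeR test. The neighbours lie between -1.15 and 1.30, and Paip2b near Vax2 is the 1 filled circle.

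Profiles over the 8 libraries were compared as the root mean square difference of centred log2(CPM + 1) values, where 0 would be an identical course. Actn3 and Tro, both selected for falling in both experiments, differed by 0.287, and nothing is read from that. The closest other genes to Actn3 were Mef2b (0.281), a gene of the MEF2 transcription factors, Tcte2 (0.288) and Fam196b (0.321), out of 14350 compared. The closest to Tro were Mef2b (0.195), Madcam1 (0.201) and Sema5b (0.228). Mef2b had log2 changes of -1.65 in the Usp7 comparison, which passed (adjusted p = 0.023, edgeR), and -1.30 in the Ssrp1 comparison, which did not (adjusted p = 0.20). Of the others near Actn3 or Tro, Tcte2 passed in the Ssrp1 comparison (-2.84, adjusted p = 0.0497, edgeR). It did not in the Usp7 comparison (-0.99, adjusted p = 0.20, edgeR). Fam196b had -3.14 in the Ssrp1 and -1.01 in the Usp7 comparison (adjusted p = 0.063 and 0.27, edgeR), against -1.43 and -1.45 for Actn3. Tcte2 and Fam196b reached at most 4.36 and 2.55 CPM, and the 1 CPM added to each value shrinks differences at such levels. The closest to Grin1 were Ppp1r14d (0.269), Aldoc (0.290) and Serinc2 (0.290), of which Aldoc (log2 change -1.38, adjusted p = 0.026, edgeR) and, just inside the threshold, Serinc2 (-1.43, adjusted p = 0.04975) passed in the Usp7 comparison. Vax2 had no close companion, with Slc11a1 at 0.579, C78283 at 0.703 and Col1a1 at 0.708. Its distances to the other 3 genes were 1.19 to 1.79, and Grin1 lay 0.822 from Tro and 1.01 from Actn3. The libraries shared an experiment and a depth, so these distances are descriptions. The similar genes were matched, over the same libraries, to members chosen for their falls. Their own falls therefore follow in part from the matching and support nothing.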

How the data were processed

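The authors deposited raw counts per gene for 8 libraries of polyadenylated RNA; the submitters' processing notes name featureCounts, HISAT2, cutadapt and mm10. For tool versions, the annotation release, strand mode and multi-mapped reads, a statement is not given in the sources. The tables held 54232 genes and 92 spike-in sequences; the spike-ins were all at 0 and were left out. GENCODE M21 on GRCm38 (mm10) gave symbols, positions, exon lengths and GC content, and 67 identifiers had no symbol.

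The 2 experiments were fitted separately, 4 libraries each, using R 4.3.3 and edgeR 4.0.16: filterByExpr, TMM factors and the quasi-likelihood F test, with Benjamini-Hochberg adjustment over all genes tested and a threshold of 0.05. Standard errors came from the log2 change and the F statistic. CPM values used TMM factors over the 8 libraries, so ratios of printed means differ slightly from fitted folds. The same steps were tested on simulated data. Alternatives were DESeq2 1.42.0, limma-voom (limma 3.58.1), no filter, a joint fit, a spline correction for GC content and length, the replicate number as a block, and leaving out each library. Neighbours lay within 100 kb. The genes named were the 4 members, called genes of the 10 lists, closest relatives, called and nearest neighbours, and the 3 most similar profiles per member at a mean of at least 1 CPM. Mageh1, Rest and Mef2b values beyond the likeness, the antisense genes and the single marker genes were added after values were seen. The members and lists were chosen with earlier results of these data known. With 2 libraries a group, precision is limited.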

Additional observations from a re-analysis of the deposited data

Results flagged for a closer look

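Vax2 went opposite ways in the experiments: its log2 change was 1.87 in the Ssrp1 comparison, where both libraries labelled knockout lay above both controls, and -1.80 in the Usp7 comparison, where both knockdown libraries lay below both controls. Of all genes tested, 25.6% were likewise higher in the Ssrp1 and 22.9% lower in the Usp7 comparison. The difference between the comparisons was not tested, because Vax2 was chosen for its change in the knockdown. The Ssrp1 value rests on 15 and 7 control counts against 22 and 65.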

How the results depend on the processing

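Each log2 change of the 4 genes kept its sign under all 11 alternatives per comparison. Leaving out 1 library gave 20 to 1883 called genes in the Ssrp1 and 42 to 3770 in the Usp7 comparison (585 and 476 with all). Of the 4 genes, 0 to 2 and 0 to 4 were then called lower, of relatives and pathway genes 0 to 12 and 0 to 38, and of neighbours 0 to 5 and 0 to 7. In the Ssrp1 comparison the genes called were 1109 with DESeq2, 1497 without a filter, 226 with the GC and length correction and 1314 in the joint fit. Of the 4 genes, limma-voom and the GC and length correction each called 1. Relatives and pathway genes called were 5 with DESeq2, 6 without a filter, 2 with the correction and 6 in the joint fit. Neighbours called were 2, 2, 0 and 3 in that order. In the Usp7 comparison 100 genes were called without a filter, 829 with the correction and 78 in the joint fit. Without a filter and in the joint fit 1 of the 4 genes was called, Actn3, with 2 relatives and pathway genes each, and with the correction 1 neighbour was called. These settings change the genes tested or the spread; their part was not tested further. The replicate numbers do not pair the libraries by the labels, and deviations of same-numbered libraries correlated at 0.184 and 0.144 over genes. With the replicate block the Ssrp1 and Usp7 comparisons called 988 and 1471 genes, 3 and 20 relatives and pathway genes, and 2 and 1 neighbours. With the replicate block and the GC and length correction they called 1367 and 1818 genes, 8 and 24 relatives and pathway genes, and 3 and 4 neighbours. The log2 change of the antisense gene Vax2os in the Ssrp1 comparison turned from 0.40 to -0.087 without knockout replicate 2 and was at most 0.69 without another library. With few counts, Grin1 and Vax2 are the least precise of the 4.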
